A study of Homo sapiens with 6 samples.

Results

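Aldo-keto reductases are NADPH-dependent enzymes that reduce aldehydes and ketones to alcohols. The genes of this superfamily followed here were measured in MiaPaCa-2 cells, an established human pancreatic cancer cell line, under glucose withdrawal. These were AKR1C1, AKR1C2, AKR1C3, AKR1C4, AKR1B1, AKR1B10, AKR1A1 and AKR7A2, which make up 8 of the 60668 genes in the deposited table. AKR1C1 was chosen by its strong rise in the same comparison of low glucose with control, so its difference is given as a description without a test. The other 7 were taken as its family whatever their values, and their tests come from a fit over all genes.

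The AKR1C enzymes act on steroids, prostaglandins and lipid aldehydes, AKR1B1 (aldose reductase) opens the polyol pathway by turning glucose into sorbitol, and AKR1A1 and AKR7A2 reduce a broad range of small aldehydes. Several superfamily genes, AKR1C1 and AKR1B10 among them, are widely used as readouts of NRF2, the transcription factor of the antioxidant response. Because they spend NADPH and remove reactive carbonyls, they are studied in cells under redox stress.

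The study compared 3 libraries from cells kept for 48 h in 2.5 mM glucose (low glucose) with 3 from cells in 25 mM glucose (control), described as independent biological replicates with no genetic change given in the labels. The treatment text of all 6 samples gives the low-glucose condition, whereas their titles and treatment tags separate the conditions, and the latter were followed. Strand-specific libraries were read in 150-base pairs. Only 2 columns of the table are named in the labels, those of replicates 1 and 2 of low glucose. The remaining 4 are known by condition alone and are called here by their depth. Depth was 9741183, 10126218 and 10190154 reads on genes in control and 10595408 (replicate 2), 10841656 (replicate 1) and 13733477 in low glucose. Values are read counts divided by 1 size factor per library, called normalized counts below. All values given for a gene follow this order of depth, control first.

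Keratins of epithelial origin were abundant, with KRT8 at 20549 to 46963 normalized counts, and so was the mesenchymal filament VIM at 57844 to 82510. The epithelial adhesion genes EPCAM and CDH1 stayed at or below 2.27. Of the markers of other cell types, PTPRC, CD3E, DCN and all 3 acinar genes had no read, and the highest of the remaining ones was CD14, at 10.6 to 48.1. KRT8 (log2 difference −1.01, limma adjusted p = 3.26e-06), COL3A1 (−2.18, adjusted p = 9.09e-04) and CD14 (−1.19, adjusted p = 0.0196) were lower under low glucose, as were KRT18 and KRT19, and VIM was higher (0.42, adjusted p = 0.00819). The other tested markers of fibroblasts, immune and endothelial cells did not pass: COL1A1 at 0.38, CD79A at 0.67 and VWF at −1.20. The part of these changes in the results below was not tested. In bulk RNA, fewer cells of a type and less RNA per cell cannot be told apart.

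The AKR1C genes lie side by side on chromosome 10 (GRCh38, Gencode v44). AKR1C1 spans chr10:4963253-4983283 on the forward strand, AKR1C2 chr10:4987775-5018031 on the reverse strand, AKR1C3 chr10:5035354-5107686 and AKR1C4 chr10:5195462-5218949, both on the forward strand. AKR1B1 (chr7:134442356-134459284, reverse) and AKR1B10 (chr7:134527567-134541412, forward) are neighbours on chromosome 7. AKR1A1 (chr1:45550543-45570049, forward) and AKR7A2 (chr1:19303965-19312144, reverse) lie far apart on chromosome 1. The coding sequences of the 4 AKR1C genes are each 972 bases long and closely alike, which bears on how far their reads can be told apart. AKR1C1 and AKR1C2 share 953 of these bases (98.0% identity), AKR1C1 and AKR1C3 889 (91.5%), and AKR1C1 and AKR1C4 860 (88.5%). By contrast, the aligned coding sequences of AKR1B1 and AKR1B10 were 75.8% identical.

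Of the 19 bases that differ between the AKR1C1 and AKR1C2 coding sequences, 10 lie in exon 2, and exons 4, 8 and 9 hold none. The 60-base stretch of exon 2 with the most differences between AKR1C1 and AKR1C2 is shown, because it holds more of their coding differences than any other stretch of this length within 1 exon. Non-coding bases were not compared in this way. It covers coding bases 103 to 162, at chr10:4965932-4965991 (AKR1C1, forward), chr10:5001604-5001663 (AKR1C2, reverse), chr10:5096428-5096487 (AKR1C3, forward) and chr10:5200199-5200258 (AKR1C4, forward). Each sequence is written 5′ to 3′ in the direction of transcription, and capitals mark bases that differ from AKR1C1.
AKR1C1: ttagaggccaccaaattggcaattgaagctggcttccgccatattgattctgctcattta
AKR1C2: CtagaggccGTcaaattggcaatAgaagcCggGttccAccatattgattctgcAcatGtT
AKR1C3: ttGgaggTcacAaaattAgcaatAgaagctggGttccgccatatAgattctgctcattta
AKR1C4: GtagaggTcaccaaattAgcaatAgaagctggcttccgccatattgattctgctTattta

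In this stretch AKR1C2 differed from AKR1C1 at 10 bases, AKR1C3 at 7 and AKR1C4 at 5. Along the whole canonical AKR1C1 transcript, 7.91% of all 150-base words were also found in an AKR1C2 transcript, and none in AKR1C3 or AKR1C4. Seen from AKR1C2, 16.5% of its 150-base words were found in AKR1C1 and 0.718% in AKR1C3. At a word length of 50 bases the share of AKR1C2 found in AKR1C1 was 45.7%. RSEM, which divides reads that fit several transcripts among them by estimate, is in the software list of the study, but the sources used here do not say that it made these counts. The split between AKR1C1 and AKR1C2 is therefore uncertain.

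AKR1C1 and AKR1C2 are also nearly identical upstream of their start sites. The 250 bases before the start of AKR1C1 (RefSeq, GRCh38.p14, chr10:4963165-4963414, forward strand) are shown because the matching bases before AKR1C2 (chr10:5003858-5004107, reverse strand) agree at 245 of 246 aligned positions. The 1 position that does not match is in capitals, at the end of the AKR1C1 window. Across the start sites AKR1C1 reads gaagaaagaaacattt and AKR1C2 reads gaagaaacattt. The mismatch thus marks an additional gaaa in AKR1C1 and not a changed base.
AKR1C1: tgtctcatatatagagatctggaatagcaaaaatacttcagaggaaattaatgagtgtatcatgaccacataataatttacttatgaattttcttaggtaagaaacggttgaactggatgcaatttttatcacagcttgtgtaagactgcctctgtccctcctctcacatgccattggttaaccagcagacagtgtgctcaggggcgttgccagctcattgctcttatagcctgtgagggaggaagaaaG

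Promoter windows of 250 bases before to 50 after the start were matched for 7 of the 8 genes and searched on both strands. The 3 motifs were the antioxidant response element core TGACNNNGC, the C/EBP-ATF element TGATGNAA, and the endoplasmic reticulum stress element, for which CCAAT, any 9 bases and CCACG were required. They occurred in 13.3%, 3.62% and 0.0769% of the 35116 promoter windows of the same length, respectively. In the windows of AKR1C1, AKR1C2, AKR1C3, AKR1C4, AKR1B1 and AKR1A1 none of these letters was found. AKR7A2 had 3 matches to the antioxidant response element core, of which none overlapped another motif. The stretch that holds them, from 180 to 80 bases before its start (chr1:19312226-19312326, reverse strand), is shown with the matches in capitals.
AKR7A2: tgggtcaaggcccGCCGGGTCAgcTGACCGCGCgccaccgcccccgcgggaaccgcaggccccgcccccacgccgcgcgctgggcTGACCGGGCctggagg

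AKR1C1, which converts progesterone to a less active form and reduces lipid aldehydes, was measured at 1631, 1526 and 1675 normalized counts in control and at 6086, 6230 and 6396 in low glucose. The low-glucose libraries lay close together and far above all control libraries. The mean rose from 1611 ± 76.8 to 6237 ± 155 (SD, n = 3 each), a 3.87-fold difference, or 1.95 on the scale of log2(value + 1). Of 21101 genes whose mean normalized count reached 1, 263 had a larger log2 difference, as did 19 of the 10149 whose mean reached 100. These ranks describe the gene that was picked for its rise.

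AKR1C2, which inactivates dihydrotestosterone, was measured on fewer reads and moved in the same direction. It had 40.4, 45.7 and 51.4 normalized counts in control and 129, 113 and 129 in low glucose, on 36 to 170 reads per library. The conditions did not overlap, with means of 45.8 ± 5.50 and 124 ± 9.57 (SD, n = 3 each). The log2 difference was 1.42 ± 0.169 (SE), with a limma adjusted p of 2.27e-05. Over the alternative fits its adjusted p ran from 4.03e-08 to 0.00586. These fits all use the same split of reads with AKR1C1, which is uncertain. The AKR1C2 test may therefore not be independent of the gene that was picked for its rise. The part of AKR1C1 reads in these counts was not tested.

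AKR1C3, which makes testosterone and prostaglandin F from their precursors, was close to the limit of detection. Its values were 11.2, 5.57 and 3.21 in control and 5.93, 9.62 and 6.82 in low glucose, on 3 to 10 reads per library. The conditions overlapped and the log2 difference of 0.26 ± 0.485 (SE) did not pass the test (limma adjusted p = 0.734). A difference of this size was not detectable at this depth. AKR1C4, the liver form that acts on bile acid precursors, had 1 read in all, in low glucose replicate 2, and was not tested.

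AKR1B1, the aldose reductase of the polyol pathway, was higher under low glucose. It had 326, 275 and 439 normalized counts in control and 669, 619 and 561 in low glucose. The highest control value remained below the lowest low-glucose value, although the control libraries were spread widely. The log2 difference was 0.85 ± 0.138 (SE), or 1.78-fold, with a limma adjusted p of 3.11e-04. Over the alternative fits its adjusted p ran from 7.70e-07 to 0.0383, the latter in limma without a variance trend. AKR1B10, a retinal and lipid aldehyde reductase, had no read in any library. A count of 0 allows up to 3 reads per library, which is 2.27 to 3.36 normalized counts at these depths.

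AKR1A1, the aldehyde reductase that forms L-gulonate from glucuronate, followed AKR1B1 closely. Its values were 325, 256 and 361 in control and 558, 534 and 509.9 in low glucose, again without overlap. The log2 difference was 0.78 ± 0.117 (SE), or 1.70-fold, with a limma adjusted p of 1.63e-04. Over the alternative fits its adjusted p ran from 4.78e-07 to 0.0252, the latter in limma without a variance trend. AKR7A2, which reduces succinic semialdehyde and aflatoxin dialdehyde, was at 639, 632 and 816 in control and 676, 653 and 675 in low glucose. Its conditions overlapped, with the highest and the lowest values both in control. The log2 difference of −0.05 ± 0.1 (SE) did not pass the test (limma adjusted p = 0.756), and it changed sign under scaling by library size (0.03), under quantile normalization (0.05) and without the deepest control library (0.07).

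**Figure D1:**
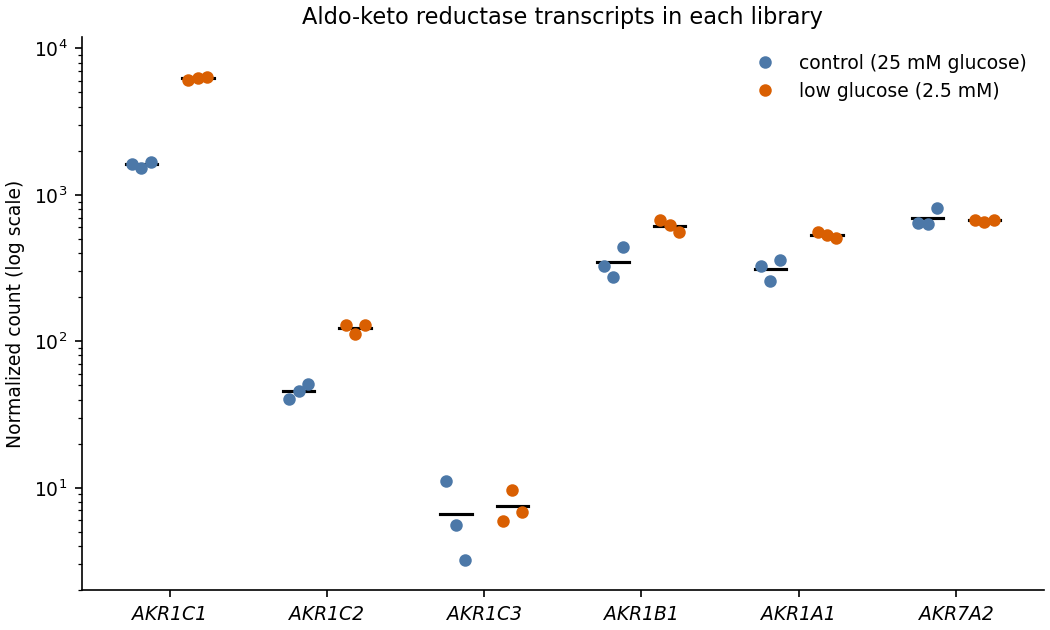
Normalized counts (log scale) of the 6 genes with enough reads to be tested, in the 3 control and 3 low-glucose libraries; points are libraries and short lines are condition means. AKR1C1 moved from 1526–1675 to 6086–6396, AKR1C2, AKR1B1 and AKR1A1 also did not overlap, and AKR1C3 and AKR7A2 did.

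Of the 7 family genes other than AKR1C1, 5 could be tested, 3 passed as higher and none as lower (limma, adjusted p below 0.05). The genes that passed include AKR1C2, whose split of reads with AKR1C1 is uncertain. AKR1C3 and AKR7A2 did not pass at an unadjusted p below 0.05 either, and DESeq2 and edgeR gave the same count of 3. The median log2 difference of the 5 tested genes was 0.78, against 0.05 over all genes tested. Over all 21101 genes, 30.9% passed in either direction, 14.7% as higher and 16.2% as lower, a count of 6528 that was 4319 without low glucose replicate 1. The balance of directions turned with the scaling, from 3111 higher and 3417 lower to 3935 higher and 2647 lower under scaling by library size. The values of the conditions did not overlap for 3 of the 5 genes and for 43.9% of all genes tested.

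The order of levels could be compared only per kilobase. Per kilobase of the canonical transcript, AKR7A2 was highest in control (465 to 600.3 normalized counts), whereas AKR1B1 (202 to 322), AKR1C1 (233 to 256) and AKR1A1 (182 to 256) overlapped. In low glucose AKR1C1 led with 930.2 to 978, above AKR7A2 (480.3 to 497), AKR1B1 (412 to 491) and AKR1A1 (362 to 397). AKR7A2 and AKR1B1 overlapped there, while AKR1A1 lay below both. AKR1C2 (14.2 ± 1.71 in control, 38.4 ± 2.98 in low glucose) and AKR1C3 (5.62 ± 3.47 in control, 6.29 ± 1.62 in low glucose; SD, n = 3) were below these genes in each library.

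The order in control depended on the length used. The canonical AKR1C1 transcript is 6543 bases long, most of it beyond the 972 coding bases, whereas those of AKR1B1, AKR1A1 and AKR7A2 measure 1361, 1407 and 1360 bases. Per kilobase of coding sequence, AKR1C1 was highest in control as well, at 1570 to 1724 against 585 to 756 for AKR7A2. Which AKR1C1 transcript these cells used was not tested.

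AKR1C1 supplied nearly all AKR1C reads in both conditions. Its share of the reads of the 4 genes was 96.8% ± 0.0932 in control and 97.9% ± 0.134 in low glucose (SD, n = 3 each). AKR1C2 had 2.47%, 2.99% and 3.07% as many reads as AKR1C1 in control, and 2.13%, 1.81% and 2.01% in low glucose. The 3 low-glucose values were below the 3 control values, and the nearest of them, 2.13% and 2.47%, rest on few AKR1C2 reads. AKR1C1 was picked for its rise, which by itself favours a lower share, so this is a description without a test. With all AKR1C genes summed into 1 feature, which leaves the split aside, the log2 difference was 1.94. Of the normalized counts of the 8 genes, the 4 AKR1C genes together made up 51.7% to 57.5% in control, against 76.6% to 78.9% in low glucose. Both the summed difference and this share rest mainly on AKR1C1, which was picked for its rise, so they are descriptions without a test. The share was not corrected for transcript length.

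**Figure D2:**
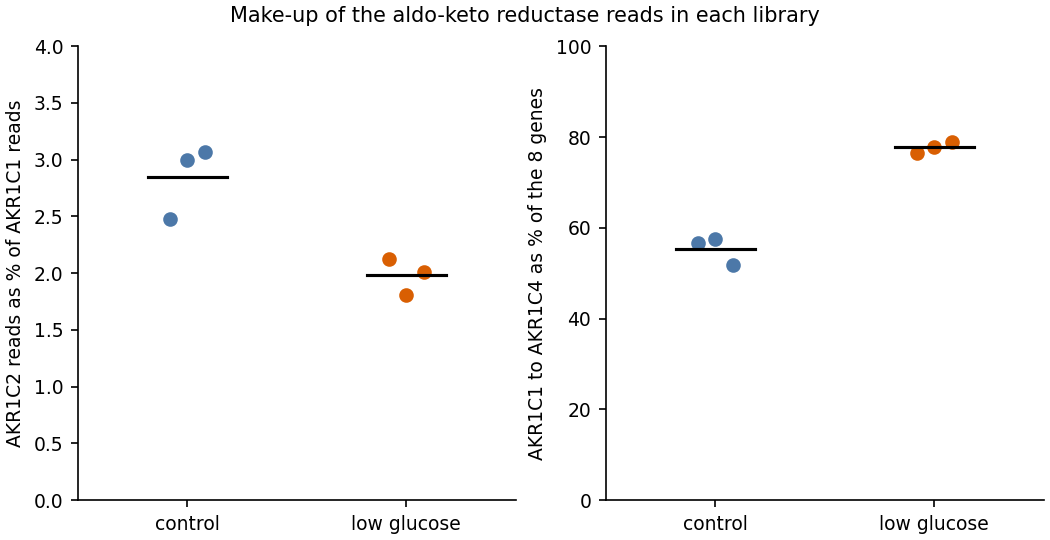
Left, AKR1C2 reads as a percentage of AKR1C1 reads; right, the 4 AKR1C genes as a percentage of the normalized counts of all 8 genes; points are libraries, lines are condition means, and both axes start at 0. The left share lay between 2.47% and 3.07% in control and between 1.81% and 2.13% in low glucose. The right share was 51.7%–57.5% in control and 76.6%–78.9% in low glucose. It rests mainly on AKR1C1, which was picked for its rise, and was not corrected for transcript length.

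The other genes of the superfamily did not pass the test. Of 9 (AKR1B15, AKR1C8, AKR1D1, AKR1E2, AKR7A3, AKR7L and the potassium channel subunits KCNAB1 to KCNAB3), 6 could be tested and 0 passed in limma, with a median log2 difference of 0.01. KCNAB1 rests on 0 to 3 reads per library, AKR7A3 on 0 to 7 and AKR7L on 2 to 11, so small changes in them were not detectable. With a mean of at least 10, 3 genes were tested and 1 passed. At an unadjusted p below 0.05 the count was 1, in DESeq2 it was 0 and in edgeR 1. That gene was AKR1E2, named after its values were seen, a reductase of 1,5-anhydrofructose whose gene lies 177 kb from AKR1C1. It had 52.7, 65.8 and 76.0 normalized counts in control and 92.9, 81.8 and 97.0 in low glucose. These did not overlap, and the log2 difference was 0.49 ± 0.179 (SE, limma adjusted p = 0.0519). AKR1B15, AKR1C8 and AKR1D1 had no read.

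**Figure D3:**
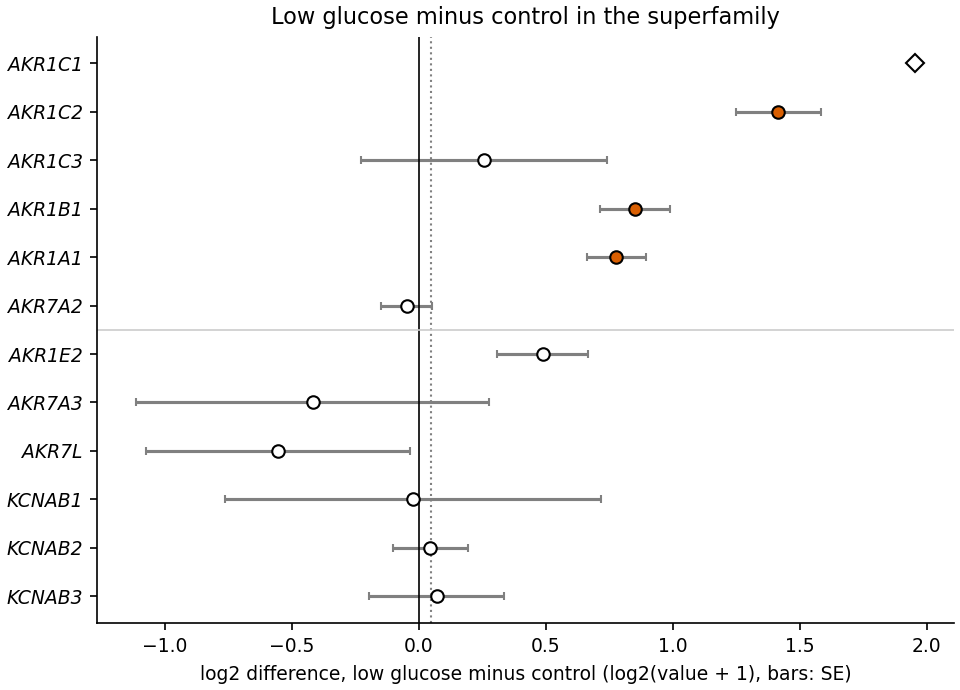
Log2 difference (low glucose minus control) on the scale of log2(value + 1) for the 6 tested genes of the family, above the grey line, and the 6 other tested superfamily genes, below it; bars are SE, filled points passed the limma test, the diamond is AKR1C1 without a test, and the dotted line is the median of all genes (0.05). AKR1C2, AKR1B1 and AKR1A1 are filled, and AKR1E2 at 0.49 is open.

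Enzymes that share substrates with the AKR1C genes moved in both directions, as did genes over the whole table. Among 20 carbonyl and quinone reductases outside the superfamily, 19 were tested, 6 rose and 2 fell, with a median log2 difference of 0.01. Beside this count and those of the lists below, 30.9% of all genes tested passed, 14.7% as higher and 16.2% as lower. The p53-induced quinone reductase TP53I3 rose from 256–287 to 508–566 normalized counts (log2 difference 0.99, limma adjusted p = 3.19e-06). DHRS2, a short-chain reductase of dicarbonyls, rose from 7.80–13.9 to 31.8–38.5 (1.64, adjusted p = 9.69e-04). RDH10, a retinol dehydrogenase, fell from 104–157 to 51.0–64.2 (−1.16, adjusted p = 2.22e-04), and carbonyl reductase CBR3 from 144–213 to 94.3–99.3 (−0.88, adjusted p = 4.95e-04).

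Of 21 steroid enzymes 15 were tested, 2 rose and 2 fell, and the median was −0.03. HSD17B14, a 17-beta-hydroxysteroid dehydrogenase, rose from 1.12–6.69 to 14.4–25.0 normalized counts (2.06 ± 0.507 SE, limma adjusted p = 0.00653), a change that rests on few control reads. The other gene that rose, SULT2B1, named after its values were seen, had 1 to 6 reads per control library and 7 to 15 in low glucose. Steroid sulfatase STS fell (−0.72, adjusted p = 0.00124) and so did the 5-alpha-reductase SRD5A1 (−0.36, adjusted p = 0.00353). Without low glucose replicate 1, 2 genes of the list passed, both lower. In the prostaglandin list 9 of 14 genes were tested, 1 rose and 1 fell (median 0.01). In the main limma fit, the shares that passed in the steroid and prostaglandin lists were below the 30.9% over all genes tested. The gene that rose, SLCO2A1, named after its values were seen, had 1 read in each control library and 6 to 14 in low glucose. The gene that fell was PTGES3, the co-chaperone also known as cytosolic prostaglandin E synthase, from 4073–4502 to 2950–3101 (−0.50, limma adjusted p = 1.34e-04). The cyclooxygenase gene PTGS2, named after its values were seen, had no read.

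The enzymes around AKR1B1 and AKR1A1 in polyol and glucuronate metabolism showed small changes. Of 8 genes 7 were tested, 3 rose and 1 fell, with a median of 0.35. SORD, the sorbitol dehydrogenase that follows AKR1B1, fell from 961–988 to 728–815 normalized counts (−0.32 ± 0.0792 SE, limma adjusted p = 0.00626), opposite to AKR1B1. UGDH, which makes UDP-glucuronate, rose (0.40, adjusted p = 0.00692), as did UGP2, which makes UDP-glucose (0.35, adjusted p = 0.00375), and the xylulose kinase XYLB (0.37, adjusted p = 0.033). Without low glucose replicate 1, 2 genes of this list passed, both higher.

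All 13 genes of aldehyde clearance were tested, with 5 higher, 5 lower and a median of 0.21. Among the 13 is ALDH2, which had no control read and so reached the filter only through low glucose. With a mean of at least 10, 12 genes were tested, with 4 higher and 5 lower. ALDH3A1 (1.12, limma adjusted p = 0.00371) and ALDH3A2 (0.64, adjusted p = 2.64e-05), dehydrogenases of medium- and long-chain aldehydes, rose. HAGHL, a glyoxalase 2 homologue, also rose (0.69, adjusted p = 0.00122). ALDH1A1, a retinal dehydrogenase, fell from 12164–13397 to 7151–7220 (−0.85 ± 0.0778 SE, adjusted p = 2.21e-06).

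NRF2, encoded by NFE2L2, is degraded through KEAP1 and CUL3 and binds DNA with small MAF proteins. All 7 regulators were tested, 4 rose and 2 fell, and the median was 0.23. The small MAF genes MAFF (0.94, limma adjusted p = 2.01e-05) and MAFG (0.62, adjusted p = 3.65e-05) and the repressor BACH1 (0.32, adjusted p = 0.0272) rose, and CUL3 fell (−0.69, adjusted p = 1.46e-05). NFE2L2 (0.23, adjusted p = 0.0328) and KEAP1 (−0.22, adjusted p = 0.0466), both named after their values were seen, passed narrowly. Leaving out low glucose replicate 2 or the deepest low-glucose library brought the number of regulators that passed to 3.

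Of 25 genes commonly used as NRF2 targets outside the superfamily, all were tested, 11 rose and 2 fell, and the median was 0.22. The list shares 5 genes with the lists above. CBR3 is among them and among the 2 that fell (−0.88, limma adjusted p = 4.95e-04). The conjugate exporter ABCC3 rose from 41.2–48.1 to 158–170 normalized counts (1.84 ± 0.153 SE, limma adjusted p = 9.17e-07). Heme oxygenase HMOX1 rose from 177–185 to 453–468 (1.35, adjusted p = 2.21e-07), the cystine carrier SLC7A11 from 250.4–315 to 682–794 (1.31, adjusted p = 8.58e-07), and the ferritin heavy chain FTH1 from 13871–18469 to 34839–36286 (1.15, adjusted p = 2.20e-06). The other 12 genes did not pass, among them GCLM and TXNRD1, named after their values were seen, at log2 differences of 0.00 and −0.04.

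**Figure D4:**
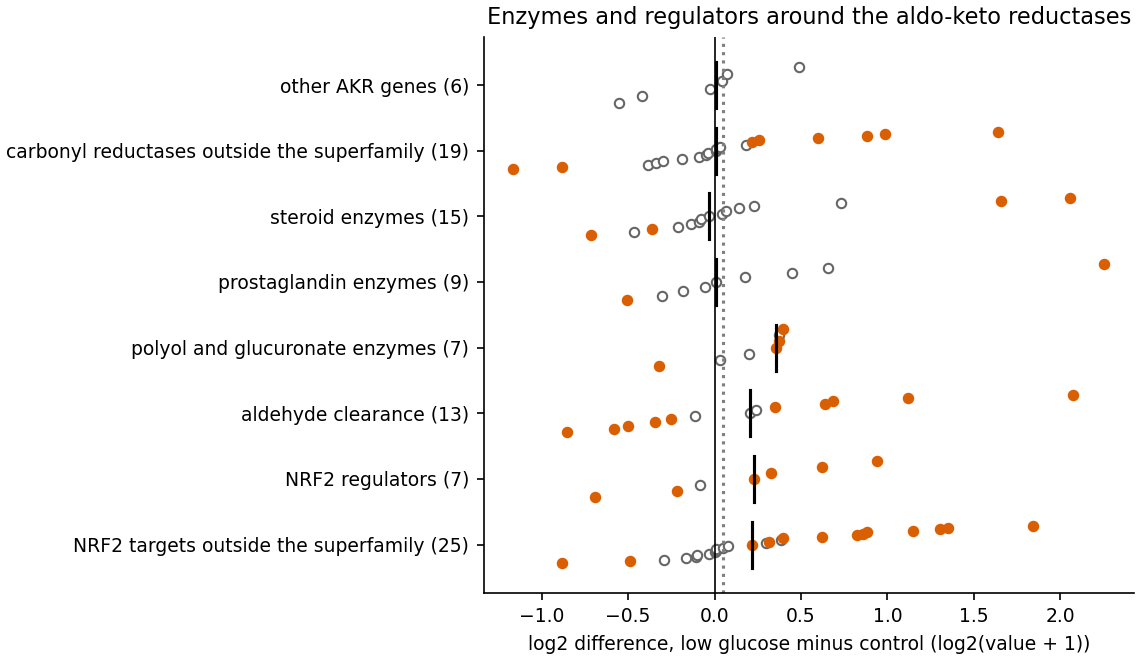
Log2 difference (low glucose minus control) on the scale of log2(value + 1) of every tested gene in 8 lists, with the number tested in brackets; filled points passed the limma test, black bars are list medians and the dotted line is the median of all genes (0.05). Medians lay between −0.03 and 0.35, and the point at 2.07 in aldehyde clearance is ALDH2, which had no control read, so its fitted value is not a fold change.

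Genes around the clusters passed in both directions, at a share near that over all genes tested. Of 74 genes that start within 1 Mb of AKR1C1 or AKR1B1, 33 were tested, 3 rose and 6 fell, with a median log2 difference of −0.02. Over all genes tested 30.9% passed, 14.7% as higher and 16.2% as lower. Without low glucose replicate 1 the count was 5, with 1 higher and 4 lower. On the AKR1C1 side 21 were tested, 2 higher and 3 lower. The nearest tested genes there were a U8 small nucleolar RNA 1 kb upstream (1.18, limma adjusted p = 0.24) and ENSG00000224251, a non-coding RNA 32 kb downstream inside AKR1C2 on the other strand (0.30, adjusted p = 0.726), and neither passed. The U8 RNA rests on 0 to 14 reads per library and ENSG00000224251 on 1 to 5, few on which to detect a change. LINC00705, a non-coding RNA 308 kb upstream, rose from 5.57–10.7 to 19.8–26.0 normalized counts (1.57 ± 0.367 SE, adjusted p = 0.00465). The pseudogene AKR1C6P, 71 kb upstream and named after its values were seen, ranged from 2.14 to 4.48 in control and from 5.77 to 9.88 in low glucose (1.25, adjusted p = 0.0647). Its transcript shared no 50-base word with the AKR1C1 coding sequence.

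**Figure D5:**
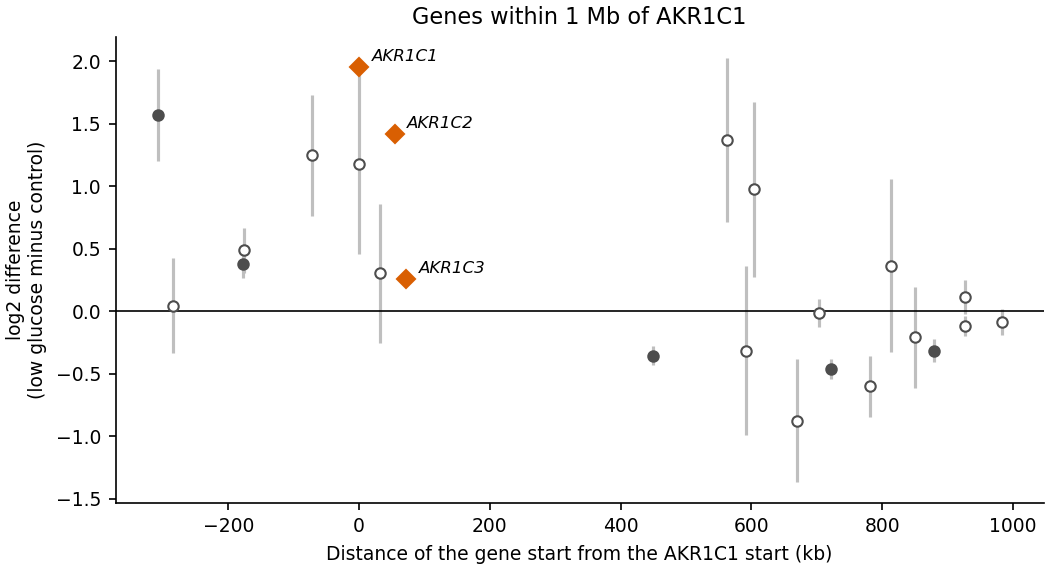
Log2 difference (low glucose minus control) of the 21 tested genes within 1 Mb of AKR1C1 against the distance of their start from that of AKR1C1; bars are SE, filled points passed the limma test, and diamonds are AKR1C1, AKR1C2 and AKR1C3. AKR1C1 and AKR1C2 lie at 1.95 and 1.42, and among the other genes only LINC00705 at 1.57 passed with a log2 difference of at least 1.

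On the AKR1B1 side 12 genes were tested, 1 higher and 3 lower. The nearest tested gene on the upstream side in coordinates was LINC03060, 27 kb away (0.21, limma adjusted p = 0.873), and on the other side BPGM, 188 kb away, the enzyme that makes 2,3-bisphosphoglycerate. LINC03060 rests on 0 to 5 reads per library, few on which to detect a change. BPGM fell from 83.5–98.7 to 49.4–65.9 normalized counts (−0.58 ± 0.177 SE, adjusted p = 0.0219), while AKR1B1 rose.

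Over the 6 libraries, the 5 genes whose profile lay nearest to that of AKR1C1 were PAX8-AS1, ABCC3, DDIT4, ENSG00000269926 and CHAC1. Likeness was the root mean square difference of the centred log2(value + 1) values over genes whose mean reached 100, and it was 0.0573, 0.0786, 0.0816, 0.0922 and 0.123, respectively. PAX8-AS1, an antisense RNA, moved from 135 to 148 normalized counts in control to 521 to 566 in low glucose. DDIT4, a stress-induced inhibitor of mTORC1, moved from 915–1106 to 3498–3906, and CHAC1, which degrades glutathione, from 125–152 to 577–672. ABCC3 passed the filter on the mean only through its low-glucose level, with condition means of 44.7 (control) and 163 (low glucose) normalized counts. A gene that stayed at its control level could not have been ranked. This ranking is a description of 6 libraries that differ mainly by condition.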

How the data were processed

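RNA-seq of MiaPaCa-2 cells in 2.5 mM (3 libraries) or 25 mM glucose (3 libraries) was analysed from 1 table. The authors mapped reads to hg38 with STAR 2.7.0e, and RSEM is in their software list, but the sources used here do not say which tool made the gene counts or with which strand setting. The unit of the deposited table is a signal in which the authors divided each read count by 1 size factor per library. To check this, reads were recovered from the step between values: 100% came out whole (tolerance 0.01), and size factors recomputed by the median of ratios over 17906 genes matched. Of the 60668 identifiers, 60295 (99.4%) matched Gencode v44, and 28454 genes had a read. Libraries held 9741183 to 13733477 reads.

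Low glucose was compared with control by limma 3.58.1 in R 4.3.3 (lmFit, eBayes with trend) on log2(value + 1) for 21101 genes with a mean of at least 1, two-sided, with Benjamini-Hochberg adjustment and a threshold of 0.05. At 3 libraries against 3, the smallest exact permutation p is 0.1, and p-values measure the spread between these libraries. The limma p and SE rest on this spread after moderation towards genes of similar level, whereas SD values describe the spread itself. The floor of 3 reads covers counting error only. The alternatives were library size, TMM and quantile scaling, at least 10 reads in every library, a mean of at least 10, no filter, a pseudocount of 0.1, no variance trend, DESeq2 1.42.0 and edgeR 4.0.16 on the recovered reads, each library left out, and the AKR1C genes summed. The fits were first tested on simulated data.

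Coding sequences came from Gencode v44 canonical transcripts and promoters from RefSeq (GRCh38.p14). Python 3.11.15 was used with pandas 2.3.3, numpy 2.4.6 and, for plots, matplotlib 3.10.9. Named genes were the 8 members; up to 4 genes per list that passed, with a mean of at least 10 and the largest changes; the 5 genes most like AKR1C1; and, near the clusters, the nearest tested genes and those that passed with a log2 difference of at least 1. The members and lists were chosen with earlier results of these data known. The columns of 4 libraries were assigned to their condition by the rule that defines the members, since the labels do not name them.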

Additional observations from a re-analysis of the deposited data

How the results depend on the processing

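The count of 3 family genes past the threshold (AKR1C2, AKR1B1 and AKR1A1) was 3 under all 16 alternatives, and their direction held in each. None of the 16 changes the split of reads between AKR1C1 and AKR1C2, so they do not bear on that uncertainty. The AKR1C1 log2 difference was 2.03 under library size scaling, 2.13 under quantile normalization and 1.91 to 1.98 with a library left out. The log2 difference of AKR7A2 turned to 0.0321 under library size scaling and 0.0530 under quantile normalization, and ran from −0.1127 to 0.0717 with a library left out (the highest without the control library of 10190154 reads). That of AKR1C3 turned to −0.0681 under quantile normalization and ran from −0.1073 to 0.6608 with a library left out (the lowest without the same control library). The cause of these turns was not tested.

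Without a variance trend 4090 genes passed over all genes, 2 of the steroid, 2 of the polyol and glucuronate, 3 of the NRF2 regulator and 5 of the neighbouring genes. Quantile normalization left 2 polyol and glucuronate genes, and edgeR 1 prostaglandin gene. Of the other superfamily genes 1 passed under library size and TMM scaling, a mean of at least 10, at least 10 reads in every library, and edgeR. With each library left out, 4319 (without low glucose replicate 1) to 7251 genes passed, 0 to 1 other superfamily genes, 2 to 5 steroid, 2 to 5 polyol and glucuronate, 3 to 6 NRF2 regulator and 5 to 11 neighbouring genes. The low counts for steroid, polyol and neighbouring genes also came without low glucose replicate 1. The cause was not tested.

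No paired analysis was possible because replicate numbers are known for 2 of the 6 columns only, both of low glucose. At this depth AKR1C3 rests on 3 to 10 reads per library.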
